A study of Homo sapiens with 12 samples.

Results

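The 10 genes described here encode mRNA-binding proteins that act on translation: the La-related proteins LARP1, LARP4 and LARP4B, the poly(A)-binding proteins PABPC1 and PABPC4, the cold-shock protein YBX1, the zinc-finger protein CNBP, the paired proteins TIA1 and TIAL1, and the translation inhibitor PDCD4. They were taken by gene name from the table of counts, which lists 20212 genes, and all 10 were among the 13329 genes with enough counts to be tested. Ribosome footprints (RF) and total RNA were measured in PANC-1, an established human pancreatic cancer cell line, after exposure to the solvent DMSO or to 50 nM rapamycin, an inhibitor of the mTORC1 kinase complex, for 60 min. There were 3 cultures of each treatment and 12 libraries in all. RF and total RNA libraries of the same treatment and label number were taken as 1 culture, from the shared number alone. The labels name no other agent and no genetic change, and the study described the line as lacking the protein 4E-BP1. Translation efficiency (TE) is the RF level of a gene divided by its total RNA level.

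mTORC1 links nutrient and growth signals to protein synthesis, in part through mRNAs that begin with a 5′ terminal oligopyrimidine (TOP) tract. LARP1 binds the cap and the tract of such mRNAs and is a substrate of mTORC1. Poly(A)-binding proteins coat the tail of the mRNA and contact the cap-binding complex, and LARP4 and LARP4B bind both poly(A)-binding protein and mRNA. YBX1 packages mRNA, CNBP binds G-rich mRNA and has been linked to TOP mRNAs, TIA1 and TIAL1 bind U-rich mRNA and enter stress granules, and PDCD4 holds the helicase eIF4A until the kinase S6K1, downstream of mTORC1, marks it for degradation.

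The mRNAs of this group differ at their annotated 5′ ends, and 5 are shown: the 4 genes whose fitted TE change was more than 1 SE from 0, and YBX1, the most abundant in total RNA. The first 25 bases of the coding isoform with the highest FPKM in total RNA were read from the GENCODE transcripts of GRCh37. Capitals mark the unbroken run of C and T that starts at the first base, and U is written as T.
PABPC4: CTCTCTCCgccccgggtcgctgccg
LARP4: agccgggtccactgccgggtggagg
CNBP: Tggggccgtgtgcagacccgcgtgt
YBX1: attctcgctagttcgatcggtagcg
TIA1: TTagtgtaattgccgccggaggagg
The PABPC4 end lies at chr1:40042438-40042462 on the minus strand, and its run is 8 bases long. The LARP4 end lies at chr12:50794668-50794692 on the plus strand and the YBX1 end at chr1:43148089-43148113 on the plus strand, and neither starts with C or T. The CNBP end at chr3:128902724-128902748 and the TIA1 end at chr2:70475688-70475712, both on the minus strand, have runs of 1 and 2 bases. A first C followed by at least 4 further C or T, searched on the transcript strand, was found for 540 of 12860 tested genes with such an isoform (4.2%) and for 41 of 89 genes in a list of TOP mRNAs (46.1%). By this isoform, PABPC4 and PABPC1, whose run is 11 bases long and is not shown, matched, and the other 8 of the 10 genes did not. The isoform read held 28.4% of the summed isoform FPKM in DMSO for PABPC4, 44.3% for CNBP, 38.4% for TIAL1 and 17.7% for TIA1. Ends of other isoforms were not searched. These are ends as annotated, not starts measured in these cells, and a match is a description of the letters.

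The genes lie apart in the genome, with coordinates here of GRCh37. LARP1 spans chr5:154062546-154197165, LARP4 chr12:50786166-50873787, YBX1 chr1:43148089-43169476 and PDCD4 chr10:112631553-112659764, all on the plus strand. On the minus strand are LARP4B at chr10:852873-977761, PABPC1 at chr8:101698044-101735037, PABPC4 at chr1:40026381-40042462, CNBP at chr3:128886670-128902765, TIA1 at chr2:70436576-70475792 and TIAL1 at chr10:121331314-121356541. The annotation names 13 pseudogenes after PABPC1, 10 after YBX1 and 1 each after LARP1 and LARP4. Reads that fit both a gene and its copy were not counted, so the levels of these 4 genes are less certain. LARP4, TIA1 and PDCD4 overlap the coding genes FAM186A, C2orf42 and BBIP1, and the sources used here do not state whether counting used strand.

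The RF libraries held between 278835 and 1574723 counts and the total RNA libraries between 78081241 and 94293744. A count of 0 in RF therefore allows up to 1.91 CPM (counts scaled to library size) in the deepest library and 10.8 in the shallowest, for counting error only. Such floors used total counts, whereas the CPM of genes used a scaled library size, so the scales differ slightly. The total RNA library of rapamycin replicate 2 stood apart: for 8 of the 10 genes and for 53.6% of all genes tested its CPM lay outside the range of the other 5 libraries, against 24.2% to 35.1% of all genes for each of those 5. DMSO total RNA replicates 1 and 2 had counts for 16840 and 16858 genes, and the other 4 total RNA libraries for 19751 to 19847. In RF, DMSO replicate 2 lay outside the other 5 libraries for 46.4% of all genes and for 5 of the 10. The other RF libraries did so for 18.9% to 36.2% of all genes. Among the 10 genes, DMSO replicate 1 also lay outside for 5 and rapamycin replicate 3 for 4. Of the duct and epithelial markers, 3 keratins were highest in DMSO, KRT8 at 1740 ± 29.4, KRT18 at 1590 ± 12.7 and KRT19 at 1370 ± 32.6 FPKM (fragments scaled to transcript length and library size, SD, n = 3). Other duct and epithelial markers were far lower, with SOX9 at 20.8 ± 0.521, KRT7 at 11.5 ± 0.485, CDH1 at 7.58 ± 0.352 and EPCAM at 4.81 ± 0.226. At least 1 FPKM in every library was reached by 7 of 8 duct and epithelial markers, with CFTR at most 0.122 FPKM, and the summed level of the list was 4730 to 4780 in DMSO and 4530 to 4780 in rapamycin. None of the acinar, endocrine or fibroblast markers reached 1 FPKM in every library, AMY2A was listed at 0 in all, the leukocyte marker PTPRC was at most 0.215 FPKM, and CD68 lay between 69.0 and 88.3. The endothelial marker VWF was at most 0.0443 FPKM, and PECAM1 was not matched.

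In total RNA, the 10 genes covered a wide range of levels per length, given here as FPKM, and the order was clear in DMSO. YBX1 was highest at 370 ± 10.4 FPKM (SD, n = 3, as for all levels in this paragraph), followed by PABPC1 at 309 ± 7.97 and CNBP at 225 ± 5.13. PABPC4 at 79.2 ± 6.10, LARP1 at 70.6 ± 2.85 and TIAL1 at 63.7 ± 1.19 formed a middle group. TIA1 stood at 42.8 ± 0.333, LARP4 at 33.5 ± 0.762, LARP4B at 17.6 ± 0.620 and PDCD4 at 12.7 ± 0.995. No neighbours in this order overlapped between the DMSO cultures, although the lowest PABPC4 value, 73.6, was close to the highest LARP1 value, 73.1. In rapamycin the order was the same, but YBX1 overlapped PABPC1, PABPC4 overlapped LARP1 and LARP1 overlapped TIAL1. Even the lowest of the group, PDCD4, was above 53.5% of the genes tested in DMSO, and YBX1 was above 98.6%.

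Single isoforms carried very different shares of these levels. YBX1-201 made up 98.0 ± 0.146% of the summed isoform FPKM of YBX1 in DMSO (SD, n = 3) and 98.2 ± 0.186% in rapamycin. For PABPC1, the leading coding isoform made up 28.5 ± 1.16% in DMSO and 27.4 ± 1.13% in rapamycin, so the level was spread over many annotated forms. TIA1-201 made up 17.7 ± 1.2% in DMSO, beside TIA1-209, an isoform annotated as a retained intron, at 12.8 ± 2.91%. PDCD4-201, the leading coding isoform, made up 19.1 ± 2.52% in DMSO and 16.4 ± 1.59% in rapamycin. Isoform FPKM are estimates of reads shared among forms, so these shares carry more error than the gene levels.

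TE of the group was mostly below that of the typical gene in DMSO. The mean TE over cultures was under the median of all genes, 0.654, for 8 of the 10, the exceptions being CNBP at 0.911 ± 0.334 and PDCD4 at 0.750 ± 0.235 (SD, n = 3). TIA1 had the lowest TE of the group, 0.144 ± 0.0955, above only 5.96% of genes. LARP1 at 0.294 ± 0.0849 and YBX1 at 0.294 ± 0.0141 were each above 19.2% of genes. In rapamycin all 10 means lay under the median of 0.661, from TIA1 at 0.233 ± 0.0265 to PDCD4 at 0.657 ± 0.226. Total RNA was counted over whole exons, whereas footprints fall mainly on coding sequence, and coding sequence made up 29.4% of the leading TIAL1 isoform, 30.2% of that of TIA1, 32.6% of that of YBX1 and 73.8% of that of PABPC1. TE levels of different genes therefore compare different parts of the mRNA, while the change of 1 gene between treatments does not.

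**Figure D1:**
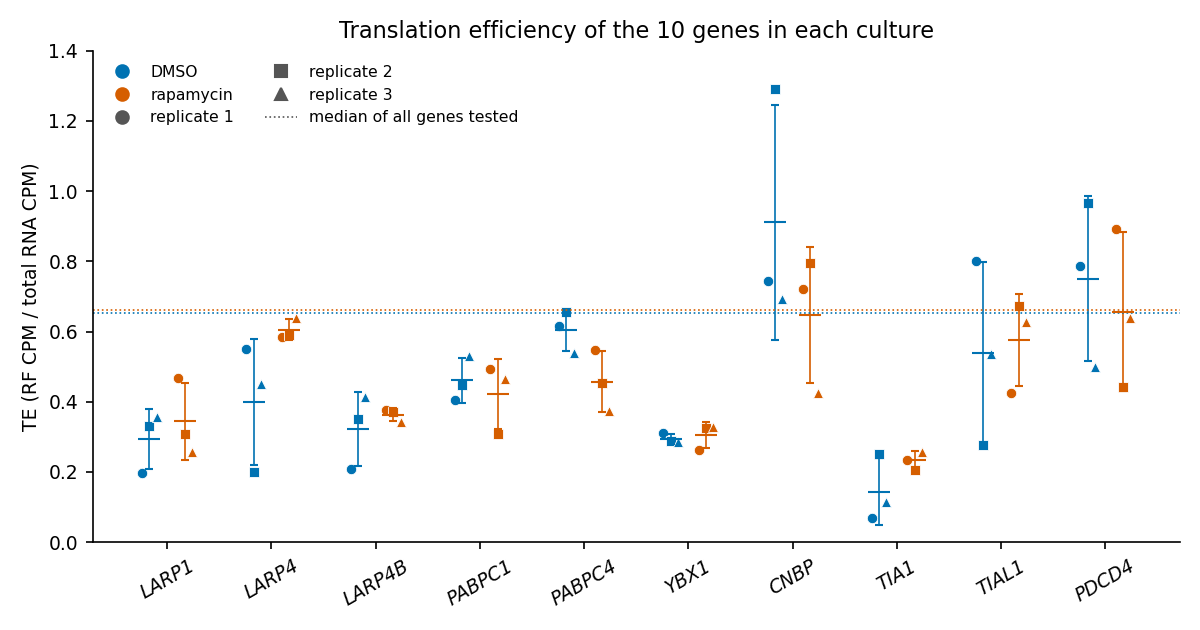
TE, the ratio of RF CPM to total RNA CPM, of each gene in the 3 DMSO (blue) and 3 rapamycin (orange) cultures, with shapes for replicates, dashes and bars for mean ± SD, and dotted lines for the median of all genes tested in each treatment. The 3 rapamycin points of LARP4 lie above its 3 DMSO points, and the DMSO points of CNBP and TIAL1 are widely spread.

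No TE change of the 10 genes passed the test. edgeR's quasi-likelihood method tested whether the treatment acted differently on RF and on total RNA, and its p-values were adjusted by Benjamini-Hochberg over all genes tested. With the adjusted p held under 0.05 it called 0 of the 10 and 0 of 13329 genes (0%). Before adjustment, p was under 0.05 for 0 of the 10 and for 12.6% of all genes. Of the 10 genes, 7 had a fitted log2 fold change of TE above 0 and 3 below, with a median of 0.07 beside -0.07 over all genes. DESeq2's Wald test called 606 of the 13329 genes lower and 676 higher. Of the 10 genes it called 1, LARP4, a share close to that over all genes. In TE per culture, 1 of the 10 genes had all rapamycin cultures above all DMSO cultures, beside 4.7% of all genes, and 0 had them all below, beside 6.32%. With 3 cultures against 3, the smallest p of the two-sided exact permutation test on TE per culture is 0.1. Fewer ribosomes on each mRNA and fewer cells that translate it cannot be told apart in bulk libraries.

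**Figure D2:**
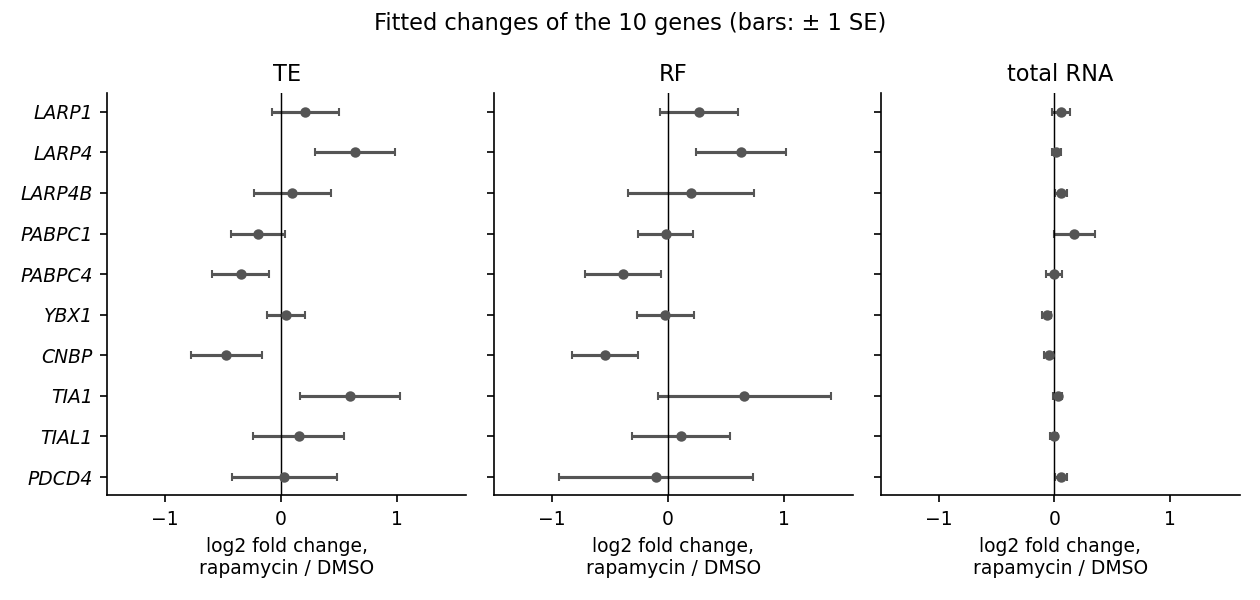
Fitted log2 fold change, rapamycin over DMSO, of TE, RF and total RNA for each gene, as points with bars of ± 1 SE from edgeR over 3 cultures per treatment. In TE, 4 genes lie more than 1 SE from 0, LARP4 (0.64), TIA1 (0.60), PABPC4 (-0.35) and CNBP (-0.47), and none passed the adjusted threshold. The SE of TE used 1 estimate of spread per gene for both library types and can be too small.

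RF alone also separated few of the 10 genes. edgeR's quasi-likelihood test on the RF libraries called 0 of the 10 and 0% of all genes with the adjusted p held under 0.05. Before adjustment, p was under 0.05 for 0 of the 10 and for 3.71% of all genes. DESeq2's Wald test on RF called 1 gene lower and 4 higher, none of them among the 10. All rapamycin libraries lay above all DMSO libraries for 1 of the 10, beside 5.17% of all genes, and below them for 1, beside 4.3%. These were LARP4 and PABPC4. The biological coefficient of variation between replicates was 54.9% in RF and 5.31% in total RNA. The TE fit used 1 estimate of spread per gene for both library types, so the SE and p of TE can be too small. The SE was lower in TE than in RF for every gene but CNBP (0.31 against 0.29), for example 0.43 against 0.74 for TIA1.

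**Figure D3:**
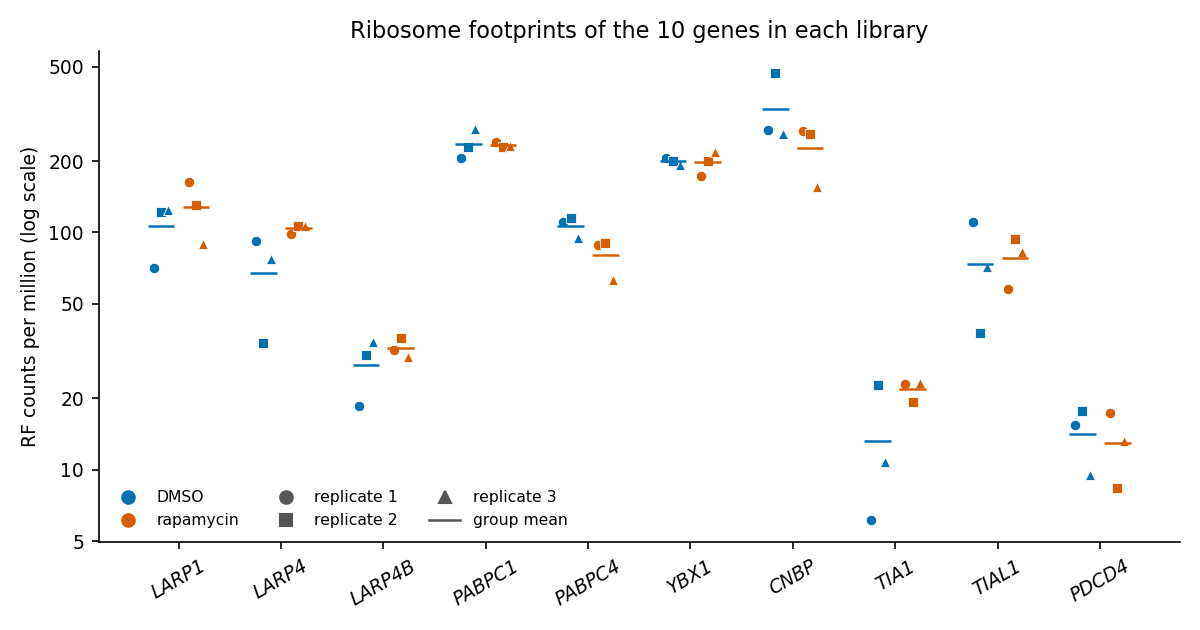
RF CPM on a log axis for each gene in the 3 DMSO (blue) and 3 rapamycin (orange) libraries, with shapes for replicates and dashes for group means. LARP4 is higher in every rapamycin library, from 98.7 to 107, than in any DMSO library, from 34.1 to 92.3, and PABPC4 is lower, from 62.9 to 89.9 against 94.7 to 115.

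Among the La-related proteins, LARP4 had the largest fitted rise in TE of the 10 genes, and it did not pass the test. Its RF counts in DMSO replicates 1, 2 and 3 were 30, 27 and 114, or 92.3, 34.1 and 77.1 CPM. In rapamycin they were 120, 89 and 32, or 98.7, 107 and 106 CPM. The rapamycin libraries were alike, with a coefficient of variation of 4.21%, and the DMSO libraries were spread, with one of 44.5%. DMSO replicate 2 was the low library: the 95% exact Poisson interval of its value ran from 22.4 to 49.6 CPM, below the interval of 63.6 to 92.6 CPM in DMSO replicate 3. The interval of DMSO replicate 1, 62.2 to 132 CPM, held every rapamycin value. Total RNA of LARP4 was 168, 170 and 171 CPM in DMSO and 169, 180 and 166 in rapamycin, so the treatments overlapped. TE was 0.549, 0.201 and 0.450 in DMSO and 0.584, 0.591 and 0.638 in rapamycin, with no overlap, and the exact permutation p on log2 TE was 0.1, the smallest possible. With total counts as library size, without TMM scaling, that permutation p was 0.2, so the lack of overlap depended on the scaling. The fitted log2 fold change of TE was 0.64 (SE 0.34, edgeR adjusted p = 0.462). Without DMSO replicate 2 it was 0.31. DESeq2's Wald test, which called 606 lower and 676 higher of 13329 genes, gave an adjusted p of 0.00323 for LARP4. Over the other alternatives the adjusted p of LARP4 lay between 0.231 and 0.781.

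LARP1 and LARP4B showed no separation of the treatments. LARP1 had 70.7, 122 and 124 RF CPM in DMSO and 164, 131 and 89.4 in rapamycin. The lowest library in each treatment was the one with the fewest counts, DMSO replicate 1 and rapamycin replicate 3. Total RNA of LARP1 was 358, 371 and 349 CPM in DMSO and 350, 425 and 347 in rapamycin, where replicate 2 alone was above every other library. The log2 fold change of TE was 0.21 (SE 0.29, edgeR adjusted p = 0.807), and without rapamycin replicate 1 it was -0.05. LARP4B had 18.5, 30.3 and 34.5 RF CPM in DMSO and 32.1, 35.9 and 29.8 in rapamycin, from as few as 6 counts in DMSO replicate 1. Its log2 fold change of TE was 0.10 (SE 0.33, edgeR adjusted p = 0.966). The footprint density of LARP4, as RF CPM per kilobase of coding sequence, was above that of LARP4B in 6 of 6 cultures, by a ratio of 2.84 ± 2.03 in DMSO and 3.26 ± 0.319 in rapamycin (SD, n = 3). The same ratio in FPKM of total RNA was 1.91 ± 0.107 and 1.85 ± 0.0507.

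Of the poly(A)-binding proteins, PABPC4 had lower footprint levels in all 3 rapamycin libraries, and PABPC1 did not. PABPC4 had 111, 115 and 94.7 RF CPM in DMSO and 88.9, 89.9 and 62.9 in rapamycin, from 36, 91 and 140 counts and from 108, 75 and 19 counts. The gap between the groups was narrow beside the counting error: the 95% Poisson interval of DMSO replicate 3, 79.6 to 112 CPM, held the values of rapamycin replicates 1 and 2. The log2 fold change of RF was -0.38 (SE 0.33, edgeR adjusted p = 0.9998). Total RNA was 180, 175 and 175 CPM in DMSO and 163, 199 and 168 in rapamycin, with replicate 2 of rapamycin the highest of the 6 and its companions the lowest. TE of PABPC4 was 0.615, 0.656 and 0.540 in DMSO and 0.546, 0.452 and 0.374 in rapamycin, which overlapped by the value of rapamycin replicate 1. Its log2 fold change of TE was -0.35 (SE 0.24, edgeR adjusted p = 0.588; exact permutation p on TE per culture 0.2). It stayed below 0 when any 1 culture was left out, between -0.46 and -0.25.

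PABPC1 had 206, 230 and 272 RF CPM in DMSO and 241, 229 and 232 in rapamycin, so the rapamycin values fell inside the DMSO range. Its total RNA was 510, 513 and 512 CPM in DMSO and 489, 743 and 499 in rapamycin. The rapamycin replicate 2 library alone was far from the other 5. The fitted log2 fold change of PABPC1 in total RNA was 0.17 (SE 0.17, edgeR adjusted p = 0.791) with that culture and -0.05 without it. Its log2 fold change of TE moved likewise from -0.20 (SE 0.23, edgeR adjusted p = 0.764) to 0.06. Footprint density of PABPC1 exceeded that of PABPC4 in 6 of 6 cultures, by a ratio of 2.51 ± 0.612 in DMSO and 3.33 ± 0.686 in rapamycin. The two-sided exact permutation test of the log2 ratio between treatments gave p = 0.3. In FPKM of total RNA the ratio of PABPC1 to PABPC4 was larger, 3.92 ± 0.260 in DMSO and 4.54 ± 0.767 in rapamycin, and PABPC1 had the lower TE in 5 of 6 cultures, with a TE ratio of 0.774 ± 0.181 in DMSO and 0.942 ± 0.283 in rapamycin.

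YBX1 had the highest total RNA level per length of the group and CNBP the most footprints per coding length, and neither passed the test. YBX1 had 206, 201 and 193 RF CPM in DMSO and 173, 201 and 219 in rapamycin, with coefficients of variation of 3.36% and 11.7%. Its TE was 0.310, 0.288 and 0.284 in DMSO and 0.261, 0.325 and 0.327 in rapamycin, so rapamycin held both the lowest and the highest values. The log2 fold change of TE was 0.04 (edgeR adjusted p = 0.991), and over all alternatives it stayed between -0.02 and 0.15. Total RNA of YBX1 was 664, 695 and 680 CPM in DMSO and 661, 619 and 667 in rapamycin, with replicate 2 of rapamycin the lowest of the 6.

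CNBP had the most RF counts of the group, 1433 over the 6 libraries. Its RF level was 271, 470 and 259 CPM in DMSO and 267, 261 and 156 in rapamycin. DMSO replicate 2 was well above the rest and rapamycin replicate 3 well below, while the other 4 libraries lay within 259 to 271. The log2 fold change of RF was -0.54 (SE 0.29, unadjusted p = 0.0775, edgeR adjusted p = 0.9998), the smallest unadjusted p of the 10 genes in RF. TE was 0.744, 1.29 and 0.693 in DMSO and 0.721, 0.794 and 0.426 in rapamycin, and its log2 fold change was -0.47 (SE 0.31, edgeR adjusted p = 0.554). Without DMSO replicate 2 it was -0.12, and without rapamycin replicate 3 it was -0.26. Per coding length CNBP had 654 ± 233 RF CPM per kilobase in DMSO, beside 206 ± 6.9 for YBX1 and 133 ± 18.8 for PABPC1, in a coding sequence of only 510 bases.

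TIA1 and TIAL1 had uneven footprint counts. For TIA1, the DMSO libraries held 2, 18 and 16 RF counts and the rapamycin libraries 28, 16 and 7. On the CPM scale these were 6.15, 22.7 and 10.8 in DMSO and 23.0, 19.2 and 23.2 in rapamycin. The value of DMSO replicate 1 was below the 9.89 CPM that a count of 0 allows in that library, and DMSO replicate 2 fell inside the rapamycin range. The log2 fold change of TE was 0.60 (SE 0.43, edgeR adjusted p = 0.599). It was 1.11 without DMSO replicate 2 and 0.28 without DMSO replicate 3, and it was above 0 in each alternative run. TIAL1 had 111, 37.8 and 71.7 RF CPM in DMSO and 57.6, 93.5 and 82.8 in rapamycin, where the DMSO values enclosed all 3 rapamycin values. Its log2 fold change of TE was 0.15 (SE 0.39, edgeR adjusted p = 0.903) and -0.15 without DMSO replicate 2. TIAL1 had a higher TE than TIA1 in 6 of 6 cultures, by ratios of 11.8, 1.11 and 4.68 in DMSO and 1.81, 3.28 and 2.43 in rapamycin. In FPKM of total RNA the ratio of TIAL1 to TIA1 was steady, 1.49 ± 0.0166 in DMSO and 1.49 ± 0.0404 in rapamycin.

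PDCD4 was the scarcest of the group. Its RF counts were 5, 14 and 14 with DMSO and 21, 7 and 4 with rapamycin, or 15.4, 17.7 and 9.47 CPM and 17.3, 8.39 and 13.2 CPM. Total RNA was 19.6, 18.3 and 19.0 CPM in DMSO and 19.4, 19.0 and 20.8 in rapamycin. The treatments overlapped in both. The log2 fold change of TE was 0.03 (SE 0.45, edgeR adjusted p = 0.986), and the difference of mean log2 TE per culture was -0.17 (exact permutation p = 0.7), so the sign was not settled at this depth. Its SE in TE was the largest of the 10 genes.

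**Figure D4:**
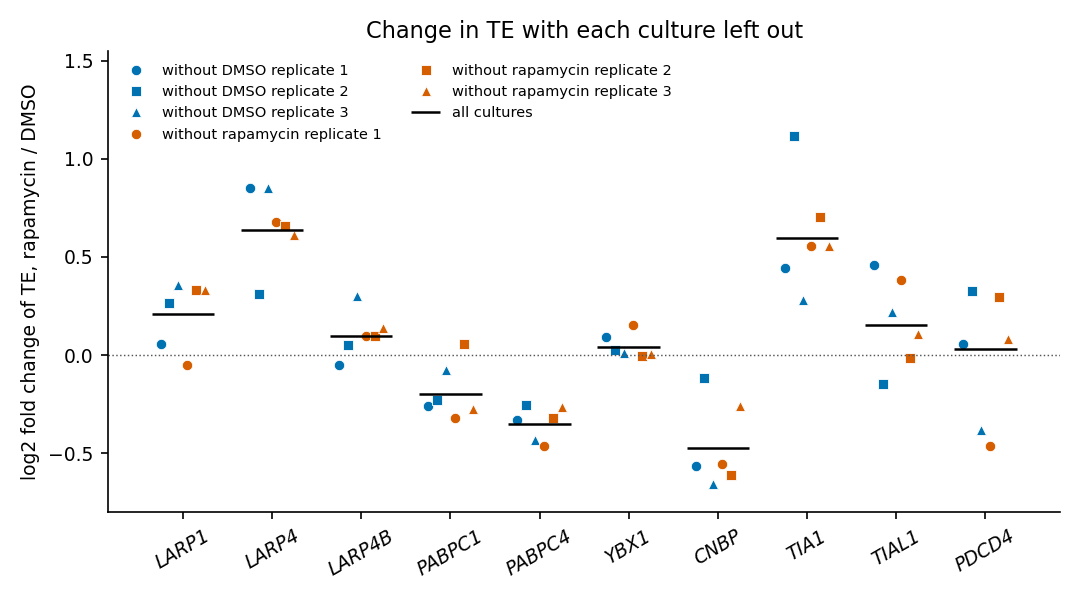
Fitted log2 fold change of TE, rapamycin over DMSO, for each gene with all 6 cultures (black dash) and with each culture left out in turn (blue for a DMSO culture, orange for a rapamycin culture, shapes for replicates). LARP4 and TIA1 stay above 0 and PABPC4 and CNBP below 0 throughout, and the other 6 genes cross 0.

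Total RNA of the 10 genes changed little. edgeR's quasi-likelihood test on the total RNA libraries called 0 of the 10 and 0% of all genes with the adjusted p held under 0.05. Before adjustment, p was under 0.05 for 0 of the 10 and for 5.82% of all genes. DESeq2's Wald test on total RNA called 4 genes lower and 25 higher, none of them among the 10. The rapamycin libraries lay all above the DMSO libraries for 0 of the 10, beside 8.22% of all genes, and all below them for 0, beside 6.61%. The fitted log2 fold changes ran from -0.07 for YBX1 (SE 0.04, edgeR adjusted p = 0.766) to 0.17 for PABPC1. Compared with the mean of its companions, replicates 1 and 3, the rapamycin replicate 2 library was higher by 0.59 on the log2 scale for PABPC1, 0.29 for LARP1, 0.26 for PABPC4 and 0.16 for LARP4B, and different by -0.16 for CNBP and -0.10 for YBX1. Over all genes tested this difference had a median of 0.0003, a 5th percentile of -0.23 and a 95th percentile of 0.47, so PABPC1 was beyond that range. Without that culture, both of its libraries left out, the log2 fold change of TE was 0.33 for LARP1, 0.66 for LARP4, 0.10 for LARP4B, 0.06 for PABPC1 and -0.32 for PABPC4. It was -0.004 for YBX1, -0.61 for CNBP, 0.70 for TIA1, -0.02 for TIAL1 and 0.30 for PDCD4. The part of the total RNA library alone was not tested.

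**Figure D5:**
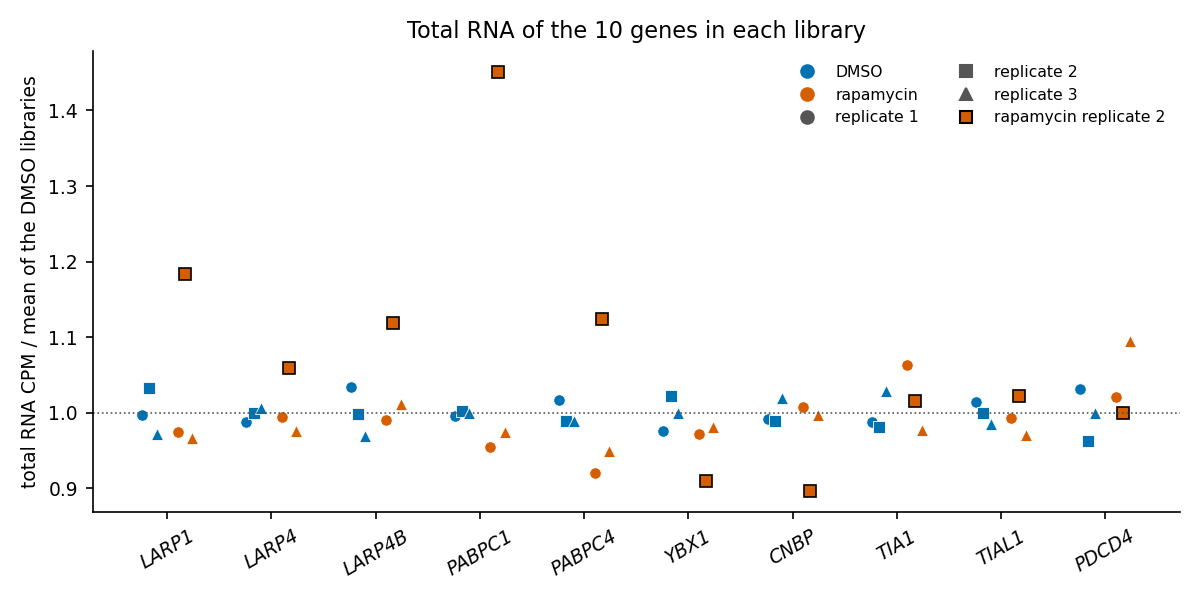
Total RNA CPM of each gene divided by its mean over the 3 DMSO libraries, for the 3 DMSO (blue) and 3 rapamycin (orange) libraries, with shapes for replicates and rapamycin replicate 2 outlined in black. That library is above the other 5 for LARP1, LARP4, LARP4B, PABPC1, PABPC4 and TIAL1 and below them for YBX1 and CNBP.

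Related genes were grouped in lists by their role, and none of them passed an adjusted threshold in TE, RF or total RNA under edgeR. In TE, the unadjusted p was under 0.05 for 6.61% of all genes in the lower and 6.04% in the higher direction, the shares against which the counts of each list stand. Of the 4 other La-module proteins, 0 had such a p in TE, and the median log2 fold change of TE was -0.10, beside -0.07 over all genes. Of 22 poly(A) tail proteins and deadenylases tested, 2 were lower and 0 higher at that unadjusted p in TE, with a median of -0.24. The smallest p was that of CNOT7, a deadenylase of the CCR4-NOT complex, with RF counts of 2, 5 and 9 with DMSO and of 0, 1 and 0 with rapamycin (log2 fold change of TE -3.81, SE 1.07, edgeR adjusted p = 0.231). The DMSO values were 6.09 to 6.31 CPM, and a count of 0 allows 2.39 CPM in rapamycin replicate 1, below them, and 10.8 CPM in rapamycin replicate 3, above them. Of 7 other cold-shock proteins, 0 were lower and 2 higher. YBX3, a close relative of YBX1, had 24.6, 16.4 and 33.8 RF CPM in DMSO and 42.8, 51.5 and 53.0 in rapamycin, without overlap (log2 fold change of TE 0.91, SE 0.35, edgeR adjusted p = 0.311).

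Over all genes, 6.61% were lower and 6.04% higher in TE where the unadjusted p was under 0.05, the shares for the lists that follow. Among 11 stress granule proteins, 1 was lower and 0 higher at that p, with a median log2 fold change of -0.16. That gene was DDX3X, an RNA helicase, with 268, 301 and 321 RF CPM in DMSO and 213, 206 and 205 in rapamycin, groups that did not overlap (log2 fold change of TE -0.43, SE 0.16, edgeR adjusted p = 0.286). Its RF counts, from 62 to 474 per library, were higher than those of the other named genes of the lists. Of 20 regulators that bind 3′ UTRs, 1 was lower and 0 higher, with a median of 0.09. MSI2, of the Musashi family, had 21.5, 7.57 and 27.7 RF CPM in DMSO and 7.41, 13.2 and 6.62 in rapamycin, which overlapped (log2 fold change of TE -1.23, SE 0.53, edgeR adjusted p = 0.357). Of 18 decapping and silencing factors, 1 was lower and 1 higher, with a median of -0.08. TNRC6A, a partner of Argonaute, had 30.8, 53.0 and 41.9 RF CPM in DMSO and 18.1, 13.2 and 29.8 in rapamycin (log2 fold change of TE -1.27, SE 0.36, edgeR adjusted p = 0.231). AGO2, an Argonaute protein, had 6.15, 3.78 and 10.1 in DMSO and 28.0, 18.0 and 9.93 in rapamycin (log2 fold change of TE 1.34, SE 0.51, edgeR adjusted p = 0.314).

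Of 15 genes of the cap-binding complex eIF4F, the 4E-BPs and the route that degrades PDCD4, 3 were lower and 0 higher in TE where the unadjusted p was under 0.05, with a median log2 fold change of -0.18. Over all genes the shares were 6.61% lower and 6.04% higher. RPS6KB1, which encodes S6K1, had the smallest p of all the lists. Its RF counts were 5, 32 and 17 in DMSO and 0, 4 and 0 in rapamycin, or 15.4, 40.4 and 11.5 CPM against 0, 4.79 and 0 (log2 fold change of TE -3.64, SE 0.94, edgeR adjusted p = 0.231). The rapamycin counts were below every DMSO count. A count of 0 allows 2.39 CPM in rapamycin replicate 1, well below the lowest DMSO value, and 10.8 CPM in rapamycin replicate 3, close to it. EIF4EBP1, which encodes 4E-BP1, had 30.4 ± 1.25 FPKM in DMSO and 30 ± 1.64 in rapamycin (SD, n = 3) and 83 RF counts over the 6 libraries, so its mRNA was present. Of 91 TOP mRNAs tested, 0 had an unadjusted p under 0.05 in TE, 52 had a log2 fold change below 0 and 39 above, and the median was -0.07, beside -0.07 over all genes. In total RNA 81 of the 91 had a log2 fold change below 0, beside 46.8% of all genes, with a median of -0.04 beside 0.01. The unadjusted p was under 0.05 for 7 lower and 0 higher genes of the list, beside 2.51% lower and 3.32% higher over all genes. The rapamycin replicate 2 library moved with this: it lay below the mean of its companions for 74 of the 91, beside 49.9% of all genes, with a median log2 difference of -0.05. Without that culture 62 of the 91 were below 0, beside 48.6% of all genes, with a median of -0.02. Some other lists leaned the other way in total RNA. The log2 fold change was above 0 for 16 of 20 regulators that bind 3′ UTRs and for 15 of 18 decapping and silencing factors, beside 53.2% of all genes. The rapamycin replicate 2 library was above its companions for 18 and 14 of these.

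The genes most alike over the 6 RF libraries were sought for the members with the most footprints. For CNBP the closest among 6130 genes with at least 100 RF counts were TCEAL3 (Pearson's r = 0.990), GEMIN5 (0.986) and CEPT1 (0.983). For PABPC1 they were ABHD14B (0.981), FOXD1 (0.972) and SUB1 (0.972). These values are across 6 libraries that all genes share, of unequal depth, and are given as a description. They were picked as the highest among 6130 genes, so a high r follows from the choice and shows no link.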

How the data were processed

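The authors removed rRNA reads and short fragments, aligned reads to GRCh37 with HISAT2, and deposited raw counts of uniquely aligned reads per protein-coding gene from featureCounts; versions of these 2 tools are not given in the sources used here. The authors also deposited gene and isoform FPKM of total RNA, made with Cufflinks 2.2.1 and Cuffnorm per the labels' processing notes. Their columns of TE, its fold change and p-values, and the Cuffnorm count files, were not used here.

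The software was edgeR 4.0.16 for the main tests, DESeq2 1.42.0 and limma 3.58.1 for alternatives (R 4.3.3), and scipy 1.17.1 for exact tests (Python 3.11). Genes with at least 10 RF and 10 total RNA counts were tested, with TMM scaling within each library type and Benjamini-Hochberg adjustment over all 13329 genes. CPM use the TMM-scaled library size. TE and its overlap per culture used log2 CPM with a prior count of 2 for tests, and plain ratios for printed levels. The p-values of YBX1 and LARP4B in TE were raised by edgeR to those of a Poisson model, which their SE does not reflect. The SE are derived from the test statistic. The TE fit shared 1 dispersion (spread between replicates) per gene between RF and total RNA libraries. The main edgeR fits of TE and RF were tested on simulated counts, and the total RNA fit and the alternatives were not. The annotation was GENCODE v44 lifted to GRCh37, whose version differs from the authors', and genes were matched by identifier.

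All 10 members are named. From each list the gene with the smallest unadjusted TE p in each direction is named where it was under 0.05, and for the 2 members with most RF counts the 3 genes most correlated in RF. The members and lists were chosen with earlier results of these data known. Nothing in the labels says how the cultures were separated, so p-values measure the spread between these samples, which may be technical. Intervals and floors cover counting error only. No replicate pair agreed within sampling noise (chi-square per degree of freedom at least 3.70). Alternatives are listed with the dependence on processing.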

Additional observations from a re-analysis of the deposited data

How the results depend on the processing

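The 10 genes stayed below the call in every fit run of TE, RF and total RNA except DESeq2's Wald test of TE, which called 1, LARP4. LARP4 and TIA1 kept a TE change above 0 and PABPC4 and CNBP one below 0 in every fit run, while the signs of the other 6 changed in at least 1. TIA1 and PDCD4 were not tested under the minimum of 100 counts. Over all genes, 0 were called in the main tests of each measure. DESeq2's Wald test called 606 lower and 676 higher in TE, 1 and 4 in RF, and 4 and 25 in total RNA. A minimum of 1 count gave 10 lower and 10 higher in RF. limma-trend on FPKM gave 1 higher in total RNA at each pseudocount and filter. With each culture left out, TE calls ranged from 0 to 374 lower and from 0 to 70 higher (most without DMSO replicate 3), RF calls from 0 to 1 and from 0 to 6, and total RNA calls from 0 to 6 and from 0 to 876 (most without DMSO replicate 3, which leaves only the 2 DMSO total RNA libraries with fewer genes detected). The cause was not tested.

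With the replicate block, edgeR called 0 lower and 1 higher in TE and 2 and 4 in RF, and PDCD4 changed sign in TE to -0.33. Same-numbered DMSO and rapamycin libraries did not deviate together: the correlations of their deviations across genes were -0.12, -0.06 and -0.07 in RF and -0.11, -0.12 and -0.22 in total RNA, so the numbers were not read as pairs, and no sample correlated best with its own number. Without a given culture, log2 fold changes of TE ranged from -0.051 to 0.36 for LARP1, from -0.050 to 0.30 for LARP4B, from -0.32 to 0.055 for PABPC1, from -0.0037 to 0.15 for YBX1, from -0.15 to 0.46 for TIAL1 and from -0.46 to 0.33 for PDCD4. TMM over all libraries gave -0.024 for YBX1 and -0.036 for PDCD4, and limma voom gave -0.021 for PDCD4. In RF they ranged from -0.088 to 0.10 for PABPC1, from -0.081 to 0.070 for YBX1, from -0.21 to 0.50 for TIAL1 and from -0.41 to 0.16 for PDCD4, and the minimum of 100 counts gave 0.025 for PABPC1 and 0.022 for YBX1. In total RNA they ranged from -0.043 to 0.11 for LARP1, from -0.019 to 0.042 for LARP4, from -0.051 to 0.27 for PABPC1, from -0.096 to 0.046 for PABPC4, from -0.085 to 0.0030 for CNBP, from -0.0097 to 0.058 for TIA1 and from -0.025 to 0.010 for TIAL1. The minimum of 100 counts gave 0.013 for PABPC4 and 0.0084 for TIAL1 in total RNA, and limma-trend on FPKM gave 0.0036 for TIAL1 (0.0037 at the smaller pseudocount). TE per culture kept its sign for all 10 genes with a prior count of 0.5 and without TMM. For LARP4 the exact permutation p was 0.1 with the prior count of 0.5 and 0.2 without TMM. RF depth limits PDCD4, with 65 RF counts in all, and TIA1, with 87, while CNBP, with 1433, and LARP4, with 412, also varied between libraries.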
